A study of Mus musculus with 24 samples.

Results

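The comparison was between macrophages of the heart with low Ccr2 (Ccr2lo) and macrophages of the kidney labelled M2, in 3 mice. These were 6 of the 24 samples of the series, chosen by the population and animal named in each title and paired by animal. Each sample was a table of read counts of 52-base DNA barcodes that a lentivirus had inserted into cultured stem cells before transplantation. Per the labels, C57BL/6 bone marrow stem cells met the virus on day 5 of culture, and GFP+ cells with the surface profile of stem and progenitor cells (lineage-negative, Sca1+, cKit+) were sorted 4 days after infection. They were given with CD45.2+ lineage-negative cKit+ Sca1- rescue cells to male CD45.2 recipients aged 5 weeks that had received 9 Gy to the whole body, and heart, kidney and blood were collected 2 months later. All groups shared this treatment, and the strain in the labels is C57BL/6J. The other samples, used here only for reference, were cardiac Ccr2hi macrophages, renal M1 macrophages and monocytes, neutrophils, B cells and T cells of blood from the same mice. The libraries hold DNA barcodes and no expression, so the names Ccr2lo and M2 could not be checked against marker genes, and the labels give neither the markers that separated M1 from M2 nor the number of cells sorted.

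A barcode is copied to every descendant of the cell that received it, so populations with a common founder carry the same sequence. Tissue macrophages have mixed origins: many are seeded before birth and renew themselves in place, and others are replaced by blood monocytes, particularly after irradiation. Ccr2 is the chemokine receptor by which monocytes leave the bone marrow, and cardiac macrophages with little Ccr2 are commonly regarded as resident. M1 and M2 are names in use for more inflammatory and more repair-associated macrophages. Only macrophages descended from infected donor cells are visible in these data, because recipient and uninfected donor cells have no barcode and give no reads. Values are shares of amplified barcode copies and need not equal shares of cells.

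Sequences are printed for the barcodes on which the comparison turns, 5′ to 3′, with the mouse number in each name. The barcodes are synthetic and have no position in a reference genome, and their sites of integration were not analysed here. Most follow an alternation of G or C with A or T, and a capital marks a base that breaks it. The leading barcodes, those with the highest mean share of Ccr2lo and M2 in their mouse, show how the largest clones divide between the organs:
L1a: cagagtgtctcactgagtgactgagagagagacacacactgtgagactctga
L1b: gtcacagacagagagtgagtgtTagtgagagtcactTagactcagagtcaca
L2a: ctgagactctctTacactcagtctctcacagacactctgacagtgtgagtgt
L3a: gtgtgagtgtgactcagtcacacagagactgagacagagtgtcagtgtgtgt

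The barcodes with the most even level at 0.5% of reads or more are shown as the opposite extreme, having been chosen for the ratio nearest to 1:
E1: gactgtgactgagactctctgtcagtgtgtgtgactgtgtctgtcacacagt
E2: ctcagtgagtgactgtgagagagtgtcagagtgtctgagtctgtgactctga
E3: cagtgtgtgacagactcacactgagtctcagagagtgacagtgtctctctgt

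The most heart-skewed (H) and most kidney-skewed (K) barcodes of each mouse mark the extremes of the organ difference:
H1a: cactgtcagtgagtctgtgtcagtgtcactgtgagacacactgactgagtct
H2a: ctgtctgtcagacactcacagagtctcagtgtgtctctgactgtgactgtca
H2b: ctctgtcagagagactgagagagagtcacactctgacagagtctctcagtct
K1a: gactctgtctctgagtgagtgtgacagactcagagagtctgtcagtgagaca
K2a: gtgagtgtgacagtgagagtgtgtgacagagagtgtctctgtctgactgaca
K3a: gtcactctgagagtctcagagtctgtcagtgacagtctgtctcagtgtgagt

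The barcodes that reached 0.1% in Ccr2lo of all 3 mice are shown because they allow the organ difference of 1 sequence to be read in every mouse. Ra is also the most heart-skewed barcode of mouse 3:
Ra: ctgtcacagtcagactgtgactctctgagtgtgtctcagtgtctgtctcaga
Rb: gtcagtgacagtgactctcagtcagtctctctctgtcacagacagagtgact
Rc: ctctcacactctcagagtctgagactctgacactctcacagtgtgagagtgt
Any 2 of the 23 named barcodes differed at 16 to 35 of their 52 bases, so none was a near copy of another.

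The 6 samples held 10279704 to 15745444 reads, within the 6808221 to 15745444 of all 24 samples. A barcode was counted as present at 0.01% of reads or more, which was 1028 to 1575 reads in these samples. A count of 0, taken as up to 3 reads, allowed a share of up to 1.91e-05% to 2.92e-05%. Amplification without molecular identifiers means that these limits and the intervals below cover counting error only, and the number of sorted cells behind each library was not known. No pair of the 6 files was a repeat of 1 library: the chi-square per degree of freedom was at least 827 in all 15 pairs. Ccr2lo of one mouse and M2 of another shared little, with an overlap (for each barcode the smaller of both shares, added up) of 0.0286 ± 0.00339 (SD, 6 pairs), against 0.698 ± 0.0439 (SD, n = 3) in the same mouse.

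The organs held similar numbers of barcodes, while in each mouse M2 had a larger share of reads in its 10 leading barcodes and Ccr2lo a larger share in barcodes between 0.1% and 1%. Barcodes present numbered 1361 in Ccr2lo and 1353 in M2 of mouse 1, 969 and 893 in mouse 2, and 1090 and 1181 in mouse 3. Which organ held more barcodes therefore differed between mice, and the M2-to-Ccr2lo ratio was 0.998 (geometric mean, n = 3; exact sign-flip permutation p = 0.75, two-sided). The effective number of barcodes, which is the exponential of the Shannon entropy and weights barcodes by abundance, was 889 in Ccr2lo and 736 in M2 of mouse 1, 419 and 355 in mouse 2, and 554 and 610 in mouse 3. It was lower in M2 in 2 of 3 mice, with a mean ratio of 0.918 (exact sign-flip permutation p = 0.5). The inverse Simpson index, which gives abundant barcodes more weight, was lower in M2 in 3 of 3 mice: 360 in Ccr2lo and 209 in M2 of mouse 1, 138 and 88.1 in mouse 2, and 216 and 171 in mouse 3, a mean ratio of 0.663 (exact sign-flip permutation p = 0.25). The smallest p that sign flips over 3 mice allow is 0.25, so that sizes and the direction in each mouse carry these comparisons.

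The 10 most abundant barcodes took 11.2% of Ccr2lo reads and 17.8% of M2 reads in mouse 1. They took 20.1% and 23.5% in mouse 2, and 14.9% and 18.5% in mouse 3. M2 was higher in 3 of 3 mice, by 4.55 ± 1.77 percentage points (SD, n = 3), and the exact sign-flip permutation p was 0.25, or 0.464 after Benjamini-Hochberg adjustment over 13 tests. The single most abundant barcode took 1.78%, 4.31% and 1.62% of Ccr2lo and 2.52%, 7.79% and 4.06% of M2. In mouse 2 this was L2a in both populations. Its rise from 4.31% to 7.79% exceeded the whole difference of that mouse in the 10 leading barcodes, 3.41 percentage points. The remaining leading barcodes of mouse 2 together held slightly less in M2 than in Ccr2lo. Barcodes between 0.1% and 1% held 46.2%, 48.8% and 47.5% of Ccr2lo reads and 37.5%, 39.5% and 42.1% of M2 reads. The order was thus the opposite there, in 3 of 3 mice. Those between 0.01% and 0.1% held 32.4% ± 6.998 and 32.5% ± 7.42 (SD, n = 3). A cumulative share of 50% was reached with 182, 69 and 94 barcodes in Ccr2lo and with 138, 54 and 111 in M2.

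**Figure D1:**
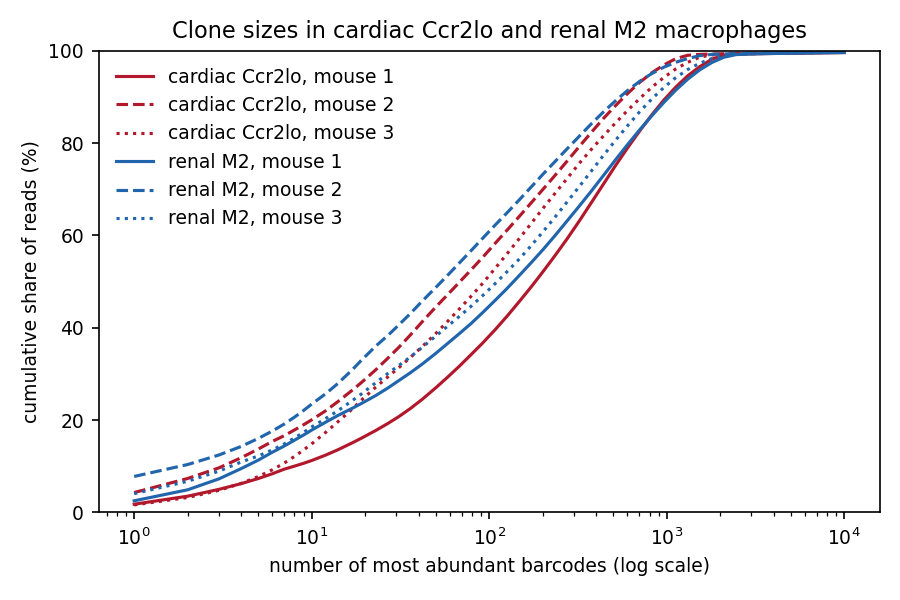
Cumulative share of reads (%) against the number of most abundant barcodes (log scale) in the 3 Ccr2lo samples (red) and the 3 M2 samples (blue), with 1 line style per mouse. In every mouse the M2 line starts higher, with 17.8%, 23.5% and 18.5% at 10 barcodes against 11.2%, 20.1% and 14.9% in Ccr2lo, and in mouse 3 the lines have crossed by 100 barcodes, with 51.3% in Ccr2lo and 48.3% in M2.

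Most barcodes found in one organ were found in the other. Barcodes present in both numbered 1054, 707 and 885 in mice 1, 2 and 3, which was 77.4%, 73.0% and 81.2% of the Ccr2lo barcodes and 77.9%, 79.2% and 74.9% of the M2 barcodes. They held 87.9%, 90.0% and 91.3% of Ccr2lo reads and 87.5%, 91.6% and 87.7% of M2 reads. Larger barcodes were missing still more rarely. Of 626 barcodes at 0.1% or more in Ccr2lo, 9 lay under 0.01% in M2, and of 566 at 0.1% or more in M2, 7 lay under 0.01% in Ccr2lo. Among the 10 most abundant barcodes, 7, 8 and 4 were common to both populations, and among the 200 most abundant, 130, 151 and 140.

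Levels were compared for the 279, 234 and 269 barcodes that reached 0.1% in Ccr2lo or M2 of a mouse, 782 in all, by the ratio of the shares after adding 0.01% to each. Of these, 716 lay within 4-fold, which was 91.8%, 92.7% and 90.3% in the 3 mice (91.6% ± 1.21, SD, n = 3), and 494 lay within 2-fold. The SD of the log2 ratio over barcodes was 1.19, 1.08 and 1.19, and its median −0.24, 0.02 and −0.28, so that the typical barcode in mice 1 and 3 had a slightly lower share in M2. Among size classes with a mean share of 0.1% or more, the log2 ratio had its smallest SD at 1% or more, 0.61, 0.46 and 0.87. By the 2-fold limit this did not hold in mouse 1, with 5 of 8 within it, against 22 of 28 at 0.3% to 1%. No barcode with a mean share of 1% or more differed by over 4-fold, of 34, and 29 of them lay within 2-fold. Over 4-fold differences were seen in 4 of 103 barcodes with a mean of 0.3% to 1%, in 21 of 444 with a mean of 0.1% to 0.3%, and in 41 of 201 compared barcodes with a lower mean, which were compared because 1 organ alone reached 0.1%.

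**Figure D2:**
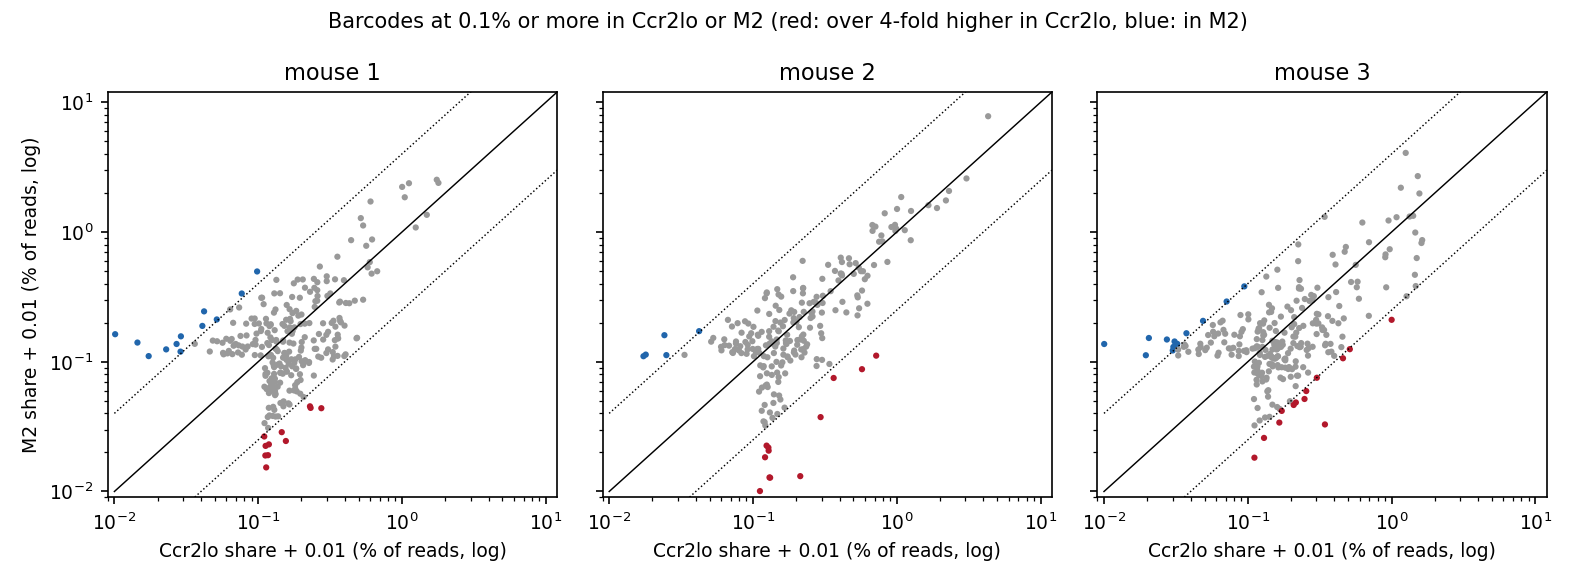
Share of reads in M2 against share in Ccr2lo (%, 0.01% added, log axes), 1 point per barcode at 0.1% or more in either population, for each mouse. The solid line is equality and the dotted lines are 4-fold; 716 of 782 points lie between the dotted lines, with 36 below (red) and 30 above (blue).

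The leading barcodes stood at the top of both organs. L1a had 1.74% of Ccr2lo reads (95% Wilson interval 1.73 to 1.74%) and 2.52% of M2 reads (2.51 to 2.53%). L1b had 1.78% and 2.38%, close to L1a in each population. L2a, the largest barcode of either macrophage population, had 4.31% of Ccr2lo and 7.79% of M2 reads. Each was higher in M2, by 1.45-fold, 1.33-fold and 1.81-fold. L3a differed more, with 1.24% of Ccr2lo and 4.06% of M2 reads, 3.25-fold, and was rank 12 in Ccr2lo and rank 1 in M2. L2b went the other way, with 3.04% of Ccr2lo and 2.58% of M2 reads. The even barcodes, chosen for an equal level, had folds of 1.02, 1.02 and 1.01. E1 had 0.587% of Ccr2lo and 0.576% of M2 reads, E2 had 0.534% and 0.521%, and E3 had 0.553% and 0.548%.

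The even barcodes had unlike levels in blood. E2 lay under 0.001% in each of the 4 blood populations of its mouse. E1 had 1.28% of reads in B cells and 0.935% in T cells but 0.0230% of neutrophil reads. E3 had 2.80% of monocyte and 3.65% of neutrophil reads.

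In each mouse Ccr2lo overlapped more with Ccr2hi, the other macrophages of the heart, than with M2 of the kidney. The overlap of Ccr2lo with Ccr2hi was 0.785, 0.799 and 0.778 in the 3 mice, and that with M2 was 0.676, 0.748 and 0.669. The difference was 0.0896 ± 0.0338 (SD, n = 3), above 0 in 3 of 3 mice (exact sign-flip permutation p = 0.25, adjusted over 13 tests 0.464). Ccr2hi and M2 overlapped by 0.678, 0.749 and 0.668, nearly the value of Ccr2lo and M2 in each mouse. The difference depended on the index: with the Jaccard index, which counts only presence, it was 0.0308 on average, with a sign-flip p of 0.5 (exact permutation). In mouse 3 the Jaccard order was reversed, at 0.631 with Ccr2hi and 0.639 with M2.

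The same held for levels of single barcodes. On the 224, 189 and 213 barcodes chosen at 0.1% in Ccr2lo alone, so that neither M2 nor Ccr2hi entered the choice, 95.1%, 93.7% and 93.9% lay within 4-fold of their M2 level and 99.6%, 100% and 99.5% within 4-fold of their Ccr2hi level. Those within 2-fold were 62.5%, 77.2% and 67.1% for M2 and 92.9%, 88.9% and 90.6% for Ccr2hi. The SD of the log2 ratio to Ccr2lo was 0.95, 0.98 and 0.93 for M2 and 0.53, 0.58 and 0.56 for Ccr2hi. The log2 SD was larger for M2 by 0.39 ± 0.03 (SD, n = 3; 3 of 3 mice; exact sign-flip permutation p = 0.25, adjusted 0.464). Spearman's rho over these barcodes, given as a description since all points of a mouse share the Ccr2lo library, was 0.609, 0.746 and 0.589 with M2 and 0.791, 0.802 and 0.843 with Ccr2hi. No repeat library of 1 cell population was among the samples, so the part of technical spread in either SD was not tested.

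Barcodes over 4-fold apart were few and lay on both sides. Heart-skewed barcodes, over 4-fold higher in Ccr2lo, numbered 11 of 279 (3.94%) in mouse 1, 12 of 234 (5.13%) in mouse 2 and 13 of 269 (4.83%) in mouse 3. Kidney-skewed barcodes, over 4-fold higher in M2, numbered 12 (4.30%), 5 (2.14%) and 13 (4.83%). The kidney share minus the heart share was −0.878 ± 1.84 percentage points (SD, n = 3), above 0 in 1 of 3 mice (exact sign-flip permutation p = 1), and without mouse 2 it was 0.179. The difference was larger towards the heart with a 2-fold limit, at −6.22 percentage points (exact sign-flip permutation p = 0.25), with a size minimum of 0.2%, at −2.90, and with 0.001% added, at −2.56. The split of 36 heart-skewed against 30 kidney-skewed barcodes depended on centring: with each mouse's ratios centred on their median it was 26 against 42, so that the heart side held 54.5% of skewed barcodes as measured and 38.2% after centring. The order of the organs in this count depended on these settings.

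Skewed barcodes held a small part of either population. The heart-skewed barcodes held 1.61%, 2.92% and 3.99% of Ccr2lo reads and 0.202%, 0.324% and 0.746% of M2 reads. The kidney-skewed barcodes held 2.31%, 0.619% and 2.13% of M2 reads and 0.339%, 0.0767% and 0.355% of Ccr2lo reads. Most were reduced in the other organ and not missing from it: 27 of 36 heart-skewed barcodes were present in M2, and 23 of 30 kidney-skewed barcodes were present in Ccr2lo. Their folds, which chose them, ran from 4.01 to 16.2 (median 5.38) on the heart side and from 4.03 to 16.1 (median 4.84) on the kidney side. The 0.01% added holds down the fold of a barcode that is near 0 in 1 organ. Without it, H2b, K1a and K3a were 1335-fold, 1238-fold and 4032-fold apart, on 12, 17 and 4 reads in the lower organ. The folds with 0.01% added had no gap at the threshold. Just inside it on the heart side lay a barcode of mouse 3 at 0.292% of Ccr2lo and 0.0653% of M2 reads (4.01-fold), and just outside another at 1.26% and 0.310% (3.97-fold). On the kidney side a barcode of mouse 3 at 0.0846% and 0.371% (4.03-fold) lay inside, and a barcode of mouse 1 at 0.0538% and 0.243% (3.97-fold) outside.

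The most heart-skewed barcodes were rare or near the counting floor in M2. H2a had 20884 reads in Ccr2lo of mouse 2 (0.203%) and 493 in M2 (0.00313%, 95% Wilson interval 0.00287 to 0.00342%), a 16.2-fold difference with 0.01% added. H2b had 10462 reads in Ccr2lo (0.102%) and 12 in M2, of 15745444 in that library. H1a had 0.104% of Ccr2lo and 0.00533% of M2 reads (7.41-fold). All of these were also found in the other cardiac population, with 0.104% (H2a), 0.0712% (H2b) and 0.0574% (H1a) of Ccr2hi reads.

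The most kidney-skewed barcodes showed the opposite pattern. K1a had 22469 reads in M2 of mouse 1 (0.153%) and 17 in Ccr2lo. K3a had 14560 reads in M2 of mouse 3 (0.127%) and 4 in Ccr2lo. K2a was present in both, with 0.150% of M2 and 0.0142% of Ccr2lo reads (6.62-fold). In Ccr2hi K1a had 994 reads (0.00837%) and K3a had 2309 (0.0193%), below their M2 shares but far above their Ccr2lo shares. By the 0.01% limit K3a was present in Ccr2hi. K2a had 0.0535% there. K1a was not particular to mouse 1, since it reached 0.0570% in Ccr2lo or M2 of another mouse, and H2a likewise reached 0.0359% in another mouse.

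Ccr2hi, which took no part in choosing the skewed barcodes, lay on the side of Ccr2lo. By log2 distance with 0.01% added, its level was nearer to that of Ccr2lo than to that of M2 for 11 of 11, 10 of 12 and 11 of 13 heart-skewed barcodes. The same was so for 12 of 12, 4 of 5 and 10 of 13 kidney-skewed barcodes, among them K1a and K3a. Over mice this was 89.3% ± 9.27 of heart-skewed and 85.6% ± 12.5 of kidney-skewed barcodes, beside 66.2% ± 5.33 of the compared barcodes within 4-fold (SD, n = 3). The median Ccr2hi share was 0.0951% for heart-skewed barcodes, between 0.159% in Ccr2lo and 0.0208% in M2. For kidney-skewed barcodes it was 0.0246%, beside 0.0195% in Ccr2lo and 0.136% in M2.

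Most compared barcodes, skewed or not, were not present in M1, the other renal population, which held 226, 94 and 120 barcodes at 0.01% in the 3 mice. Of all 782 compared barcodes 251 were present in M1 (32.1%), beside 6 of 30 kidney-skewed and 5 of 36 heart-skewed barcodes, and a difference between these counts was not tested. A group of 3 kidney-skewed barcodes, singled out after their values were seen, lay above 1% in M1. They had 1.55%, 1.16% and 2.29% of M1 reads, 0.179%, 0.115% and 0.281% of M2 reads and 0.0309%, 0.0129% and 0.0613% of Ccr2lo reads. All 3 were also high in monocytes of their mouse, at 1.12%, 0.914% and 3.32%.

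**Figure D3:**
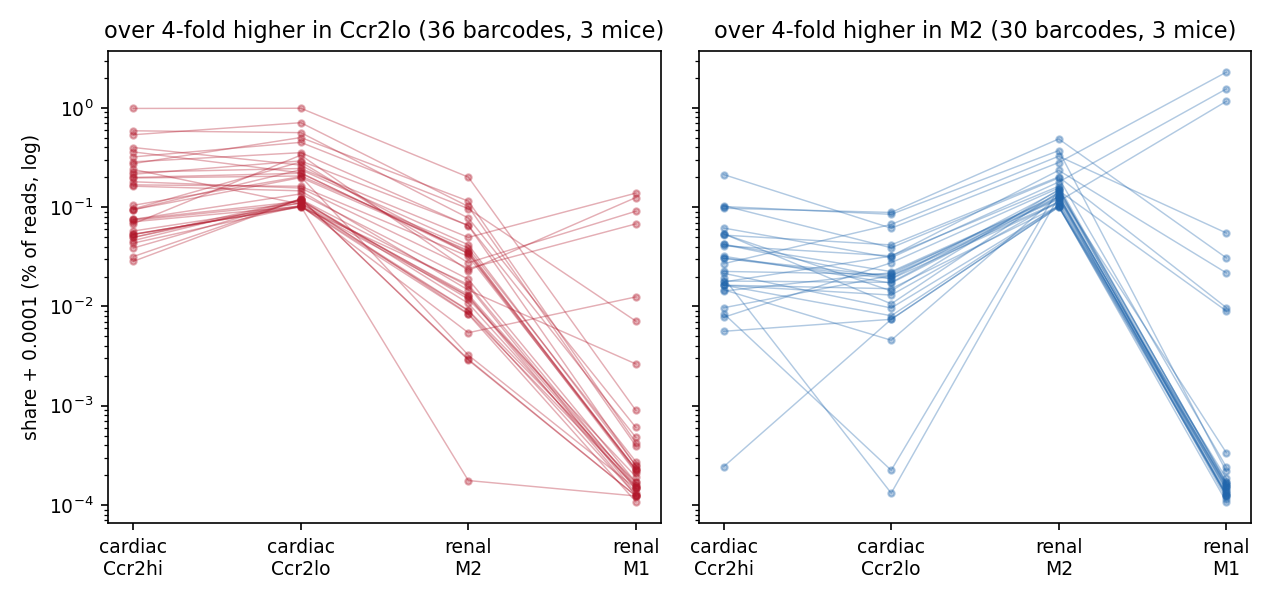
Share of reads (%, 0.0001% added, log scale) of each heart-skewed barcode (left, 36 barcodes) and kidney-skewed barcode (right, 30 barcodes) in Ccr2hi, Ccr2lo, M2 and M1 of its mouse, with a line joining the populations of 1 barcode. Most lines run roughly level from Ccr2hi to Ccr2lo; the separation of Ccr2lo from M2 is the criterion by which barcodes were chosen, and most lines fall to M1, where 5 and 6 barcodes reach 0.01%.

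Many skewed barcodes had no detectable counterpart in blood at the 0.01% level. Of all 782 compared barcodes, 309 lay under 0.01% in each of the 4 blood populations. Of the heart-skewed barcodes 20 of 36 did so, and of the kidney-skewed barcodes 23 of 30. Size goes with this count, because barcodes rich in blood were also large in the macrophages and large barcodes were seldom skewed, and its part was not tested. The 3 heart-skewed barcodes with the most Ccr2lo reads, singled out after their values were seen, had 0.991%, 0.709% and 0.563% of Ccr2lo and 0.201%, 0.101% and 0.0776% of M2 reads. Their B cell shares were 0.195%, 0.507% and 0.465%, and their monocyte, neutrophil and T cell shares all lay below the 0.01% that counts as present.

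Base composition was described for the skewed and the other barcodes. Among barcodes with the strict alternation, G made up 50.5% of the G or C positions in 33 heart-skewed, 53.1% in 27 kidney-skewed and 55.1% in 643 barcodes within 4-fold. A made up 44.6%, 45.6% and 46.0% of the A or T positions. These are descriptions over barcodes, which are not replicates.

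A test of single barcodes over the 3 mice had little to work on, because barcodes are mostly particular to a mouse. Of the 1887 barcodes with a mean share of at least 0.01% over the 6 samples, 1683 reached 0.01% in 1 mouse, 182 in 2 and 22 in all 3. The quasi-likelihood test of edgeR, with the mouse as a block, called 0 higher in Ccr2lo (0%) and 0 higher in M2 (0%) at an adjusted p under 0.05. At an unadjusted p under 0.05 it had 48, of which 14 were higher in Ccr2lo and 34 in M2, and the smallest adjusted p was 0.959. Scaling turned this direction: with total counts in place of TMM there were 178, of which 169 were higher in Ccr2lo and 9 in M2, again with 0 called after adjustment. DESeq2 with the same block called 2 higher in Ccr2lo, which were Ra and Rc, and 10 higher in M2, among them K2a. Calls by edgeR appeared when a mouse was left out: 6 and 5 without mouse 1, 2 and 3 without mouse 2, and 0 and 1 without mouse 3, for Ccr2lo and M2 in that order.

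A few barcodes recurred in all 3 mice, so that their level could be set side by side over animals. Where this recurrence comes from was not tested, and the values of a recurring barcode in different mice may therefore not be those of independent clones. Ra had 0.176%, 0.285% and 0.334% of Ccr2lo reads and 0.0490%, 0.0274% and 0.0229% of M2 reads in mice 1, 2 and 3. Ccr2lo was higher 3.58-fold, 10.4-fold and 14.6-fold. Rc had 0.171%, 0.138% and 0.156% of Ccr2lo and 0.0518%, 0.0296% and 0.0240% of M2 reads, with folds of 3.30, 4.65 and 6.49. Rb had 0.102%, 0.292% and 0.245% of Ccr2lo and 0.0680%, 0.0934% and 0.0494% of M2 reads, with folds of 1.51, 3.13 and 4.95. The folds of Ra, Rb and Rc given here are ratios of the shares as measured, without 0.01% added. Adding it, as was done to choose skewed barcodes, lowers each of them. Rc in mouse 2 then lay within the 4-fold limit and was not counted as skewed. Ra, Rb and Rc were chosen for their Ccr2lo level after it was seen, so their higher level there is a description. No barcode reached 0.1% in M2 of all 3 mice.

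Ra ranked 1 and Rc ranked 3 of 1887 by the edgeR p, with unadjusted p of 0.00191 and 0.00567 and an adjusted p of 0.959 for both, and Rb ranked 72. With only the 141 barcodes at a mean share of 0.1% tested, edgeR called 1 barcode, Ra (adjusted p = 2.851e-05), and with no filter it called Ra again. Ra reached that mean share through Ccr2lo, at 0.265% against 0.0331% in M2, and its values over mice may not be independent. These calls depended on the filter and are given as a description. The other populations, which did not enter the choice, placed M2 apart from the myeloid cells. Ra had 0.128% ± 0.0809 of Ccr2hi, 0.117% ± 0.0238 of M1 and 0.127% ± 0.0371 of monocyte reads (SD, n = 3), against 0.0331% ± 0.0140 of M2 reads. Rc had 0.159% ± 0.0362, 0.0930% ± 0.0347 and 0.175% ± 0.0267 in these populations (SD, n = 3), against 0.0351% ± 0.0147 in M2. In B cells and T cells Ra had 0.0261% ± 0.0109 and 0.0186% ± 0.00704 (SD, n = 3), near its M2 level. In each mouse the M2 share of Ra, Rb and Rc was thus below its share in Ccr2lo, Ccr2hi, M1, monocytes and neutrophils.

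**Figure D4:**
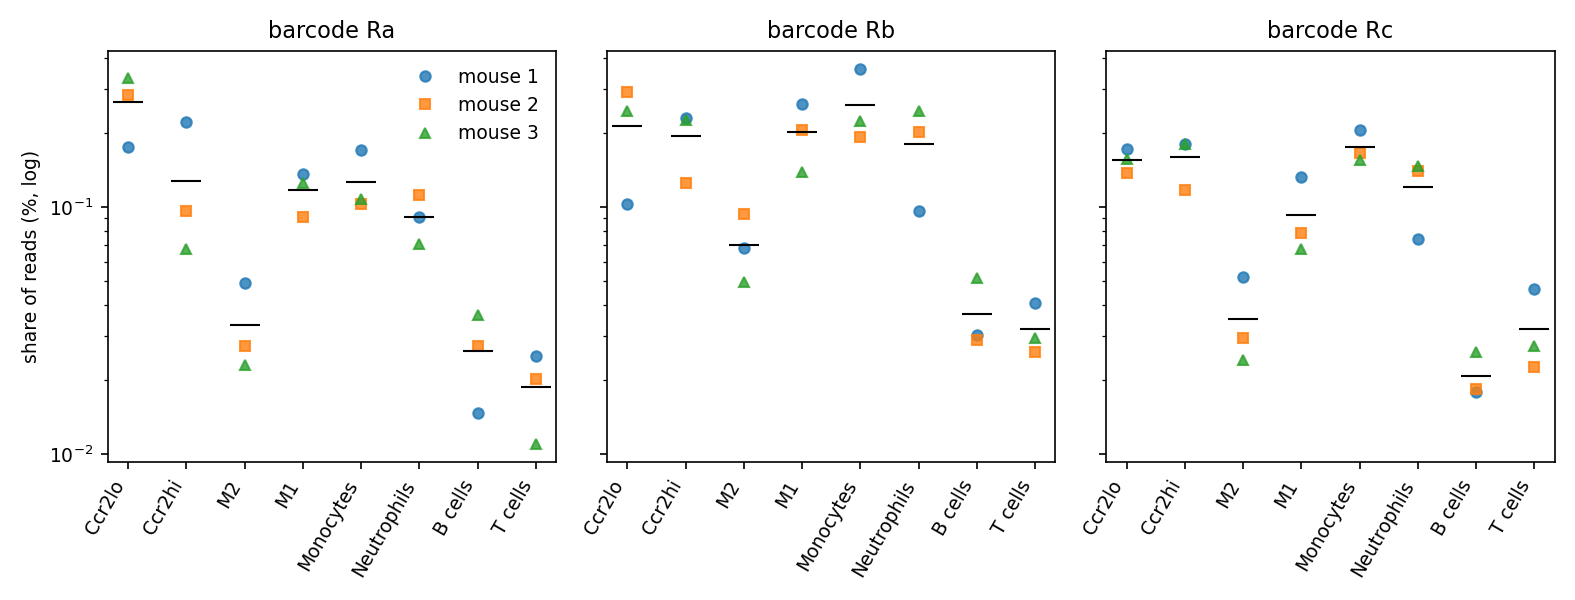
Share of reads (%, log scale) of barcodes Ra, Rb and Rc in the 8 populations, with 1 point per mouse and a bar at the mean. The M2 means (0.0331%, 0.0703% and 0.0351%) lie below those of the other macrophages, monocytes and neutrophils in each panel and above those of B cells and T cells.

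Recurrence in all mice was rare. Of 3952 barcodes that reached 0.01% in Ccr2lo or M2 of any mouse, 3725 did so in 1 mouse, 205 in 2 and 22 in 3. Among the 22, 11 varied by over 10-fold between the mouse with the highest and the mouse with the lowest level, and 11 stayed within 10-fold. Of the latter, 3 were higher in Ccr2lo in 3 of 3 mice and 1 was higher in M2 in 3 of 3 mice. The 10 leading barcodes of each population and mouse were also seen in the other mice, with medians of 0.00506% to 0.0116% of reads, which was 0.313% to 1.01% of their level at home. The highest reached 0.319%, a leading Ccr2lo barcode of mouse 3 seen in Ccr2lo of mouse 1, and 0.0941%, a leading M2 barcode of mouse 3 seen in M2 of mouse 1. Leaving out the 22 barcodes changed the kidney minus heart difference in skewed barcodes from −0.878 to 0.0654 percentage points.

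In each mouse M2 overlapped more than Ccr2lo with the myeloid cells of blood. The overlap with monocytes was 0.226, 0.344 and 0.169 for Ccr2lo and 0.329, 0.373 and 0.257 for M2 in mice 1, 2 and 3. The difference was 0.0735 ± 0.0390 (SD, n = 3; higher in M2 in 3 of 3 mice; exact sign-flip permutation p = 0.25, adjusted 0.464). For neutrophils it was 0.0742 ± 0.0395 (SD, n = 3), again in 3 of 3 mice, with the same exact permutation p. For B cells it was 0.010008 ± 0.0126 (SD, n = 3) and above 0 in 2 of 3 mice, or 0.00374 without mouse 1 and 0.0163 without mouse 3. For T cells it was 0.0248 ± 0.0218 and above 0 in 3 of 3 mice (SD, n = 3), or 0.0122 without mouse 2. The myeloid minus the lymphoid difference was 0.0564 ± 0.0496 (SD, n = 3), positive in mice 1 and 3 and −0.000815 in mouse 2 (exact sign-flip permutation p = 0.5). The myeloid excess of M2 in mouse 2, 0.0291 for monocytes and 0.0293 for neutrophils, rested on 1 barcode, L2a. It had 4.31% of Ccr2lo and 7.79% of M2 reads, and 10.0% and 10.4% of monocyte and neutrophil reads. That rise alone exceeded the excess of the mouse, so the other barcodes together went the other way.

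The order of M2 and Ccr2lo in these overlaps depended on the index. By the Jaccard index the difference was 0.00199 for monocytes and 0.00288 for neutrophils on average. M2 then lay below Ccr2lo in mice 1 and 3 for monocytes and in mouse 3 for neutrophils. With Spearman's correlation in place of the overlap, which weights rare and abundant barcodes alike, all 4 differences turned negative, −0.0243 for monocytes, −0.0265 for neutrophils, −0.0458 for B cells and −0.0385 for T cells. The abundant end could be read directly. The 10 leading monocyte barcodes of each mouse, which held 62.3%, 65.7% and 75.4% of monocyte reads, held 9.06%, 19.0% and 7.68% of Ccr2lo reads and 16.9%, 21.7% and 15.3% of M2 reads. In mouse 1 each of the 10 was higher in M2, in mouse 3 9 of 10, and in mouse 2 5 of 10. The 10 leading B cell barcodes held 6.76%, 12.5% and 12.004% of Ccr2lo and 11.2%, 18.0% and 15.8% of M2 reads. For the T cell leaders the values were closer, 3.58%, 10.03% and 8.002% against 4.13%, 14.04% and 8.58%. L3a, with 18.0% of monocyte and 20.6% of M1 reads, was among these leaders in mouse 3.

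**Figure D5:**
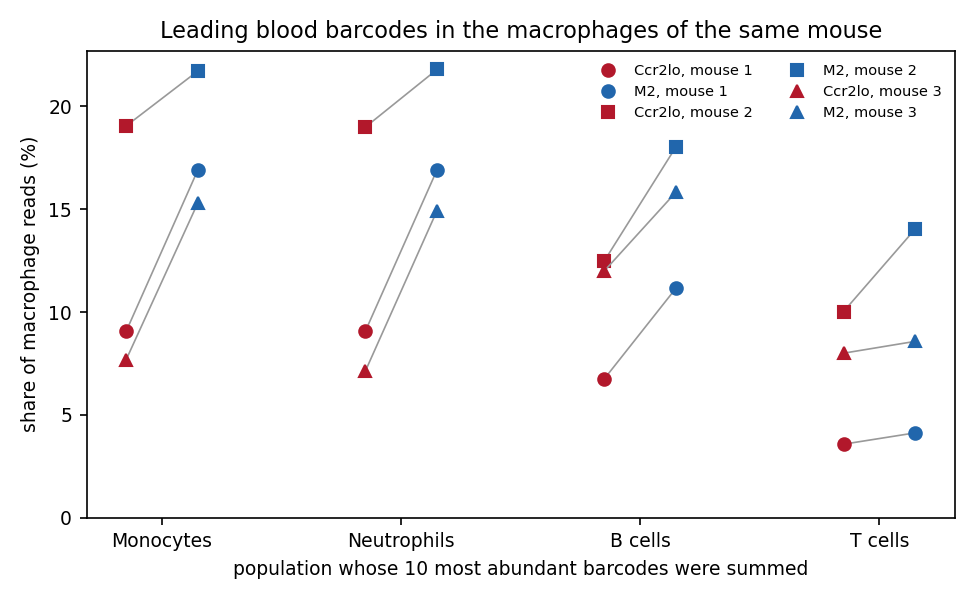
Share of macrophage reads (%) held by the 10 most abundant barcodes of monocytes, neutrophils, B cells and T cells of the same mouse, for Ccr2lo (red) and M2 (blue), with a line joining the populations of 1 mouse. All 12 lines rise from Ccr2lo to M2, by 6.05 ± 2.93 percentage points for the monocyte leaders and 1.71 ± 1.99 for the T cell leaders (SD, n = 3). The lines are not independent, because they come from the libraries of 3 mice and share barcodes. In mouse 1 the monocyte and neutrophil leaders gave the same shares, 9.06% and 16.9%. For the monocyte leaders of mouse 2 the rise of 2.67 points was smaller than that of L2a alone, from 4.31% to 7.79%.

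Among the 782 compared barcodes, those rich in blood had a median ratio on the kidney side in all 3 mice, and those with a lower presence in blood had one on the heart side in mice 1 and 3. Barcodes whose 4 blood shares averaged 0.5% or more (39, 33 and 30 per mouse) held 19.2%, 32.0% and 19.96% of Ccr2lo reads and 27.2%, 36.5% and 26.6% of M2 reads. Their median log2 ratio of M2 to Ccr2lo was 0.45, 0.06 and 0.33, beside −0.24, 0.02 and −0.28 over all compared barcodes. In mouse 2 the blood-rich barcodes thus stood close to all compared ones. Of the blood-rich barcodes 61 of 102 were higher in M2. Barcodes present in blood below that mean (126, 114 and 131) held 24.2%, 28.0% and 36.5% of Ccr2lo and 18.4%, 26.4% and 23.7% of M2 reads. Their median was −0.66, 0.02 and −0.58, and 134 of 371 were higher in M2. Shares of a sample sum to 100%, so a larger part in one class leaves less for the others.

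Barcodes under 0.01% in every blood population, 309 in all, were divided evenly between the organs. They held 14.4%, 11.9% and 13.5% of Ccr2lo reads and 15.3%, 11.4% and 14.8% of M2 reads, and 159 of them were higher in M2. Their median log2 ratio was −0.05, −0.00 and 0.34. The median of the blood-rich barcodes minus that of the blood-absent ones was 0.18 ± 0.27 (SD, n = 3), above 0 in 2 of 3 mice (exact sign-flip permutation p = 0.5), and 0.03 without mouse 1. A difference between these classes was therefore not separated from the spread between mice.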

How the data were processed

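Barcode amplicons from genomic DNA of 8 populations in each of 3 mice were measured, and the 6 Ccr2lo and M2 samples were compared. Per the labels' protocols, barcodes were amplified in 18 PCR cycles and indexed in 9 to 11 more. The deposited files give, per the file headers, a whole-number read count for each distinct barcode sequence, 34978 to 55216 per sample here. The authors' read trimming, filters and counting are not stated in these sources.

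Counts were divided by the sample total, 10279704 to 15745444 reads, to give shares. The settings were presence at 0.01%, comparison of levels at 0.1% in either population, 0.01% added before ratios, and 4-fold as the limit of a skewed barcode. The mouse numbers in the titles pair the samples: the overlap of Ccr2lo and M2 was 0.698 within a number and 0.0286 between numbers. Paired differences were tested by exact two-sided sign-flip permutation over 3 mice (smallest p 0.25), with Benjamini-Hochberg adjustment over 13 tests (Python 3.11.15, numpy 2.4.6, scipy 1.17.1), of which 3 were added after values had been seen: both comparisons of ratio spread with Ccr2hi, and the myeloid minus lymphoid difference. For single barcodes the test was edgeR 4.0.16 (R 4.3.3; TMM, mouse as a block, quasi-likelihood), with DESeq2 1.42.0 as an alternative. The code was tested on simulated data.

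In each mouse the barcodes named were the 2 with the highest mean share, the 2 most heart-skewed, the 2 most kidney-skewed, the 1 nearest to equality with a mean of at least 0.5%, and up to 3 in each direction called by edgeR, which called none. The members, measures and named barcodes were chosen with earlier results of these data known, and Ra, Rb and Rc after their values were seen. Alternatives included equal depth (6808221 reads), merging of barcodes that lay 1 mismatch from one 10-fold more abundant, leaving out barcodes 100-fold higher in another mouse or off the alternation, other thresholds and indices (inverse Simpson, Morisita-Horn, Jaccard, Spearman), total counts without TMM, each mouse left out and no pairing.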

Additional observations from a re-analysis of the deposited data

Results flagged for a closer look

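All pairs of the barcode classes defined by blood level were searched for opposite signs of the median organ ratio in all 3 mice. A pair of classes that do not share members was picked by this rule, so the opposite signs are the criterion of choice and not a result. Over all compared barcodes the median log2 ratio was −0.24, 0.02 and −0.28 in mice 1, 2 and 3. For barcodes with a mean of 0.5% or more over blood, the median log2 ratio of M2 to Ccr2lo was 0.45, 0.06 and 0.33 in mice 1, 2 and 3. For barcodes present in monocytes or neutrophils below that mean it was −0.50, −0.17 and −0.74. The second median minus the first was −0.75 on average (n = 3). In the second class 27 of 79, 35 of 75 and 9 of 59 barcodes were higher in M2, against 25 of 39, 18 of 33 and 18 of 30 in the first. The difference was not tested.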

How the results depend on the processing

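Of 240 settings tried over 21 results, 202 counted as unchanged, 25 moved and 13 reversed. Unchanged meant the same direction for a tested result, a value within 1 SD for an untested one, or an equal count of edgeR calls. The size of a tested result did not enter. The 13 tested results without pairing keep their value, so they counted as unchanged by construction. The sign-flip tests cannot pass 0.05 with 3 mice. The M2-to-Ccr2lo ratio of barcode numbers, 0.998, became 1.001 without barcodes of other mice, 1.01 with alternating barcodes only and 1.19 with presence at 0.001%, and ranged from 0.957 to 1.04 when each mouse was left out. The overlap of Ccr2lo and M2 was 0.840 as Morisita-Horn index, 0.629 as Jaccard index and 0.570 as Spearman correlation. The M2 minus Ccr2lo differences were −0.0243 (monocytes), −0.0265 (neutrophils), −0.0458 (B cells) and −0.0385 (T cells) by Spearman correlation, and −0.00493 (B cells) and −0.00260 (T cells) by the Jaccard index. For monocytes and neutrophils the Jaccard differences were 0.00199 and 0.00288 on average. They were below 0 in mice 1 and 3 for monocytes and in mouse 3 for neutrophils. The share within the fold limit was 63.7% at 2-fold, 98.9% at 8-fold, 93.6% at a size minimum of 0.2% and 87.9% with 0.001% added. Heart-skewed barcodes were 21.3% at 2-fold, 0.694% at 8-fold, 7.32% with 0.001% added and 3.40% after centring. Kidney-skewed barcodes were 15.1%, 0.363%, 1.73% at a size minimum of 0.2% and 5.23% after centring. Kidney minus heart was −1.50 to 0.179 percentage points with a mouse left out, 1.83 after centring, 0.0654 without barcodes recurring in all 3 mice, −6.22 at 2-fold, −2.90 at a size minimum of 0.2% and −2.56 with 0.001% added. Ccr2hi was nearer to Ccr2lo for 79.3% of heart-skewed barcodes at 2-fold. For edgeR, calls higher in Ccr2lo were 1 at a mean share of 0.1%, 1 with no filter and 0 to 6 with a mouse left out, and calls higher in M2 were 1 to 5 with a mouse left out; DESeq2 gave 2 and 10. Centring and leaving out recurring barcodes were chosen after seeing the data. The cause of these changes was not tested.

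Without pairing by mouse (no replicate block) the values stay the same and exact permutation of 3 against 3 samples, which cannot go below 0.1, gave p = 0.3 for the top-10 difference of 4.55 percentage points, 0.1 for the overlap difference of 0.0896 and 0.8 for the effective number ratio of 0.918; edgeR then called 0 barcodes, with 0 at an unadjusted p under 0.05.

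Depth was not limiting above 0.01%, but read shares are not cell shares, the number of sorted cells is unknown here, and each population had 1 library per mouse.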
